A study of Mus musculus with 6 samples.

Results

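Ccl17, Ccl19, Ccl22, Ccl25 and Xcl1 encode chemokines by which the thymic epithelium draws developing T cells and dendritic cells to itself. They were chosen by gene symbol for that role, with earlier results of these data known. All 5 had a row among the 15643 genes of the count table. Their transcripts were counted by MARS-seq in sorted mTEChi, the mature fraction of medullary thymic epithelial cells. All mice were 4.5 weeks old and of the NOD strain, which develops autoimmune diabetes. Libraries 745, 750 and 753 are labelled Aire+/+ and are called wild type here, and libraries 746, 748 and 749 are labelled Aire-/- and are called knockout. Aire encodes a transcriptional regulator of these cells, and the comparison of the genotypes asks how their transcripts differ when it is lost. The labels state neither the deleted part of the Aire allele, nor the sex of the mice, nor whether each number is a separate animal, so each p-value covers the spread of these libraries only, which may be technical.

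Chemokines are small secreted proteins that guide cells carrying the matching receptor. CCL17 and CCL22 are both ligands of CCR4, a receptor of thymocytes that have just been positively selected in the cortex. CCL19, with CCL21, is a ligand of CCR7, which brings maturing thymocytes into the medulla. CCL25 is the ligand of CCR9 and is made in the cortex as well as in the medulla. XCL1 is the ligand of XCR1, the receptor that marks cross-presenting dendritic cells. Dendritic cells themselves can make CCL17, CCL19 and CCL22, so in sorted bulk cells a transcript need not come from the epithelium.

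Libraries held 1014581 to 2887321 UMIs (unique molecular identifiers, which count captured 3′ ends), and the 3 knockout libraries were the shallower. Levels are given as CPM, the gene's share of the UMIs of a library on the counts-per-1000000 scale after TMM scaling, and since each UMI is one transcript end they were not divided by gene length. Aire itself stood at 2063 to 2447 CPM in the wild-type libraries and at 4464 to 5118 CPM in the knockout libraries. A 3′ count outside a deleted part checks nothing, so directions rest on the labels. Of 17 markers of mature medullary epithelium, all in the table, edgeR called 8 higher and 0 lower (DESeq2 also gave 8 and 0, and scaling by library totals 5 higher), with class II genes among them. Epcam, the epithelial adhesion molecule, was at 276 ± 28.0 CPM in the wild-type libraries and 278 ± 34.7 CPM in the knockout libraries (SD, n = 3 each). Libraries 753 and 746 had few UMIs of the glycolytic gene Gapdh (90 and 28, against 2245 to 4166 in the other libraries). Results were therefore also computed without those libraries.

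Xcl1 fell in the knockout libraries to almost nothing, Ccl25 rose, and Ccl17, Ccl19 and Ccl22 did not pass the test. Over all 11956 tested genes, edgeR's quasi-likelihood test called 12.1% lower and 8.59% higher in the knockout libraries at an adjusted p of 0.05. All 5 chemokines were tested, 1 was lower and 1 higher. The genotypes did not overlap for Xcl1, Ccl25 and Ccl19, 3 of 5 genes, against 36.5% of all tested genes. The median log2 fold change (Aire-/- over Aire+/+) of the 5 genes was -0.23, beside -0.02 over all tested genes.

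**Figure D1:**
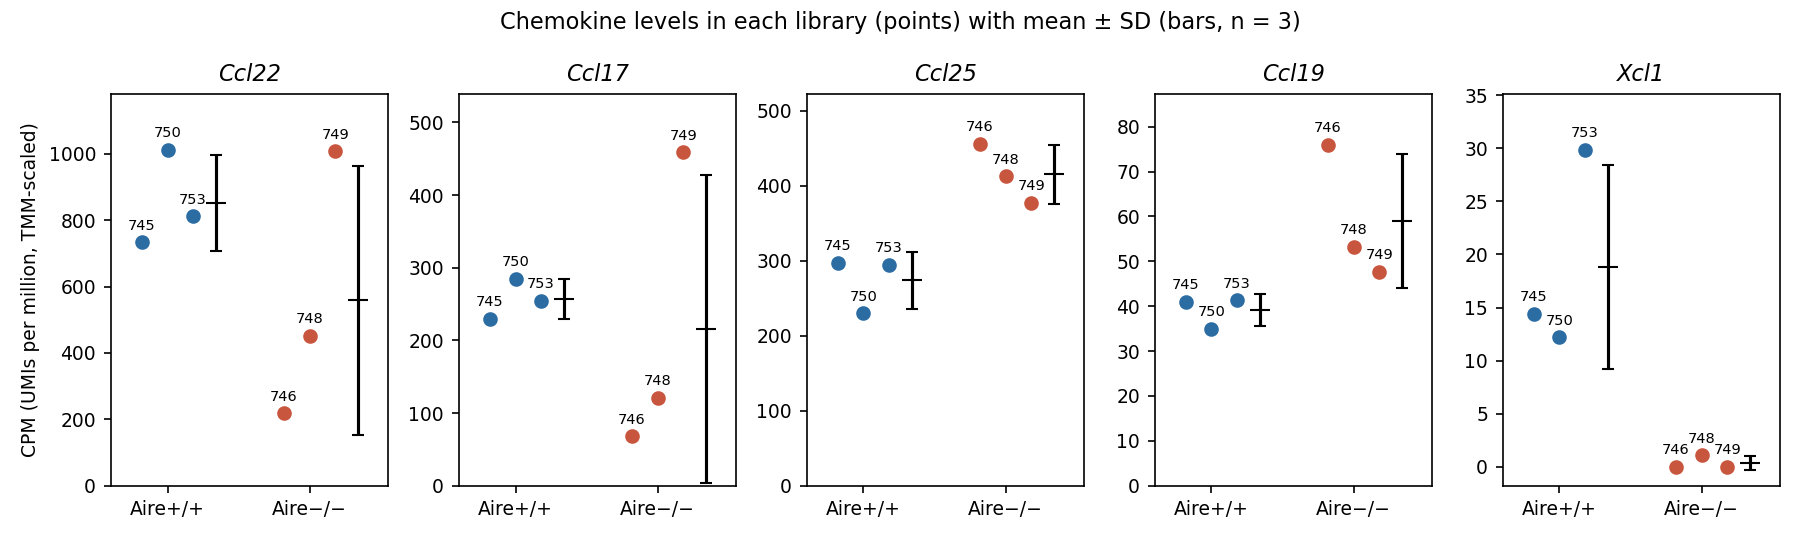
Each point is 1 library, labelled by its number, with CPM on a linear axis for each gene; black bars give the mean ± SD of 3 libraries. Ccl22 and Ccl17 are widely spread in the knockout libraries (217.7 to 1008 CPM and 67.8 to 459 CPM), Ccl25 and Ccl19 lie higher there, and Xcl1 is at 0 in 2 of the 3.

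Ccl22 was the most abundant of the 5 in the wild-type libraries, at 853 ± 144 CPM, rank 146 of the 15643 genes. Ccl25 followed at 274 ± 37.8 CPM and Ccl17 at 256 ± 27.5 CPM, a difference within their spread. Ccl19 was at 39.1 ± 3.54 CPM and Xcl1 at 18.8 ± 9.62 CPM. In the knockout libraries the means kept this order, with Ccl22 at 559 ± 406, Ccl25 at 415 ± 39.4, Ccl17 at 216 ± 212, Ccl19 at 59.0 ± 15.0 and Xcl1 at 0.359 ± 0.621 CPM. There the spread of Ccl22 covered the level of Ccl25, and the spread of Ccl17 was as large as its mean. By single library, Ccl25 exceeded Ccl22 in 746 alone, and Ccl17 exceeded Ccl25 in 750 and 749.

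Xcl1 is a protein-coding gene on the minus strand of chromosome 1 (positions 164931644 to 164935527, mm10). It gave 44, 37 and 89 UMIs in the wild-type libraries 745, 750 and 753. The knockout libraries 746, 748 and 749 gave 0, 2 and 0 UMIs. Each wild-type library was thus far above each knockout library, and 753 was the highest, 2.44 times the lowest wild-type library in CPM. Pooled over the groups, 170 UMIs stood against 2, a ratio of 41.9 with an exact Clopper-Pearson 95% counting interval of 11.4 to 349 (counting error only). The fitted log2 fold change was -5.24 with standard error 0.75 (edgeR adjusted p = 0.000251). Without library 748, which held the only knockout UMIs, the fitted value was -8.46, which then depends on the prior count and is no bound (edgeR adjusted p = 0.0015). In every one of the 15 alternatives run, Xcl1 was called lower, with adjusted p between 1.66e-05 and 0.00183. The authors' deposited table gives Xcl1 a log2 fold change of 5.40 for Aire+/+ over Aire-/- (adjusted p = 2.48e-05), and it is the only 1 of the 5 genes selected there.

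The 3 genes whose level over the 6 libraries was most like that of Xcl1 were Septin12, Aqp12 and Cartpt. Likeness was measured as the root mean square difference of log2 CPM after centring each gene, over 11567 candidates. Septin12, a septin of sperm, differed by 0.233, with 38, 36 and 56 UMIs against 0, 2 and 0. Aqp12, an aquaporin of pancreatic acinar cells, differed by 0.283 and had 36, 21 and 58 UMIs against 0, 1 and 0. Cartpt, a neuropeptide precursor, differed by 0.291 and had 39, 44 and 57 UMIs against 0, 1 and 0. All 3 encode proteins of other tissues and were called lower (edgeR adjusted p of 0.000149, 0.000402 and 3.64e-05). Because they were picked for a pattern like that of Xcl1, these calls are no separate evidence. Xcr1, which encodes the receptor of XCL1, was not analysed here. XCL1 can also come from lymphocytes, whose part in the counts of Xcl1 was not tested, and no list here holds markers of NK cells or activated T cells. None of 13 tested thymocyte markers was called by edgeR or DESeq2, and 0 had an unadjusted p under 0.05. The summed level of the 15 thymocyte markers in the table was 194 to 343 CPM in the wild-type libraries and 211 to 385 CPM in the knockout libraries.

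Ccl17 and Ccl22, both ligands of CCR4, were set apart by their spread between libraries of 1 genotype. Ccl17 gave 701, 862 and 758 UMIs in the wild-type libraries 745, 750 and 753, or 229.9, 285 and 254 CPM. In the knockout libraries it gave 66 UMIs in 746, 225 in 748 and 751 in 749, or 67.8, 121 and 459 CPM. Thus 746 and 748 lay below every wild-type library and 749 above all of them. Ccl22 gave 2237, 3065 and 2419 UMIs in the wild-type libraries, or 734, 1013 and 812 CPM. In the knockout libraries it gave 212, 839 and 1649 UMIs, or 217.7, 451 and 1008 CPM. Here too 746 and 748 were below the wild-type range, while 749 fell within it.

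Neither gene passed the test of the genotypes. The log2 fold change of Ccl17 was -0.23 with standard error 0.46 (edgeR adjusted p = 0.785), and that of Ccl22 was -0.60 with standard error 0.37 (edgeR adjusted p = 0.303). Library 749 decided both: without it, Ccl17 was at -1.39 (edgeR adjusted p = 0.000103) and Ccl22 at -1.33 (edgeR adjusted p = 0.000803). Without 746 the sign of Ccl17 turned to 0.18 and Ccl22 was at -0.22, and without 748 they stood at 0.08 and -0.46, none of them called. The highest knockout library was 6.78 times the lowest for Ccl17 and 4.63 times for Ccl22, against 1.24 and 1.38 times among the wild-type libraries. The SD of log2 CPM over the knockout libraries was 1.41 for Ccl17 and 1.10 for Ccl22, where the median tested gene had 0.31. Of 1003 tested genes with a mean level within 2-fold of Ccl17, 4 had a larger SD in the knockout libraries, and of 313 such genes around Ccl22, 1 did. These ranks were looked up after the spread had been seen.

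The proportion of the 2 genes varied far less than their levels. There were 31.3, 28.1 and 31.3 UMIs of Ccl17 per 100 of Ccl22 in the wild-type libraries, and 31.1, 26.8 and 45.5 in 746, 748 and 749. The proportion was highest in 749, and the other 5 libraries lay close together. As a log2 ratio within each library, Ccl17 over Ccl22 was -1.73 ± 0.09 in the wild-type libraries and -1.57 ± 0.39 in the knockout libraries. The difference of 0.16 gave p = 0.9 in an exact two-sided permutation test, adjusted p = 0.9 over the 10 pairs of the 5 genes. With 3 libraries against 3 the smallest p such a test allows is 0.1, so it cannot pass 0.05.

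**Figure D2:**
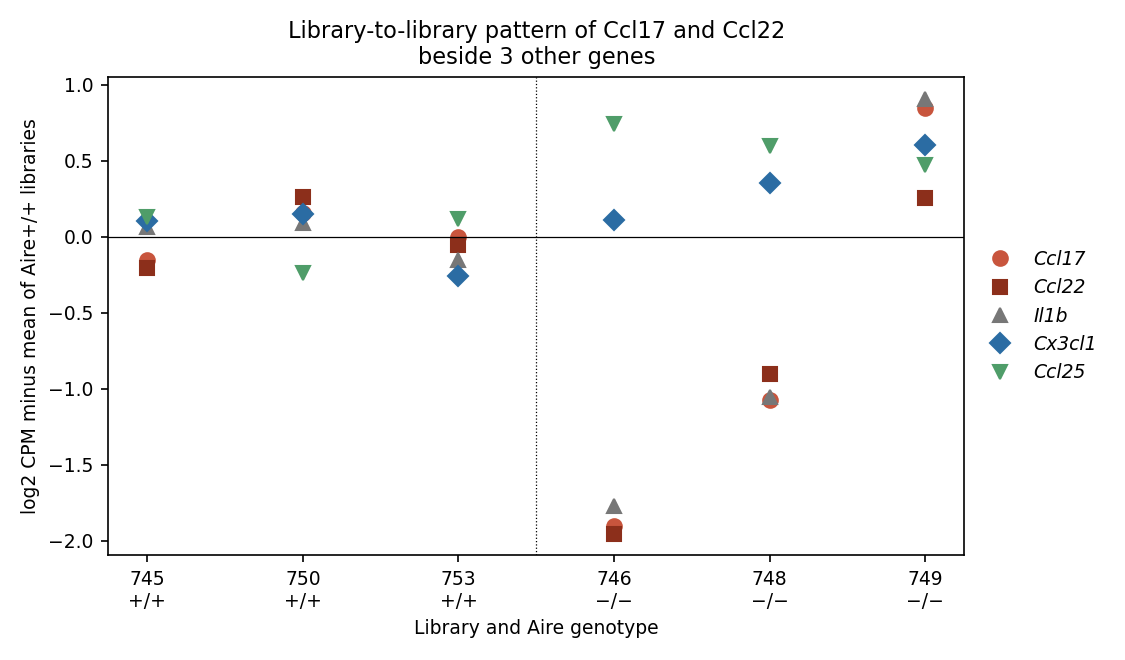
The vertical axis is log2 CPM minus the mean of the wild-type libraries, the horizontal axis the 6 libraries. Ccl17, Ccl22 and Il1b share low points in 746 and 748 and a high point in 749, while Cx3cl1, whose gene lies between Ccl22 and Ccl17, and Ccl25 stay at or above the wild-type mean in all 3 knockout libraries.

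Ccl22 (positions 94745590 to 94751699) and Ccl17 (positions 94810453 to 94812036) lie on the plus strand of chromosome 8 in mm10, 58754 nt apart. Because they moved together, the stretches before their starts are shown with that of Xcl1 for comparison, in the strand of the gene, from RefSeq (GRCm38.p6) and ended where the GENCODE or RefSeq transcript begins.
Ccl22, chr8:94745434-94745589, plus strand: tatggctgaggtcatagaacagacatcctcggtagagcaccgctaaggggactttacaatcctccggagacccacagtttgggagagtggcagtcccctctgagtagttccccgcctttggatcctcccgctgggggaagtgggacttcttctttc
Ccl17, chr8:94810203-94810452, plus strand: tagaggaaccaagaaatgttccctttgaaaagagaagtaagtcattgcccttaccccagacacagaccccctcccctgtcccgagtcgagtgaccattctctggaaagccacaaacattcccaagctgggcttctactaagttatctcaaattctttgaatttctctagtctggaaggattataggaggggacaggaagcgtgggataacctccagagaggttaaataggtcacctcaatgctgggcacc
Xcl1, chr1:164935528-164935772, minus strand: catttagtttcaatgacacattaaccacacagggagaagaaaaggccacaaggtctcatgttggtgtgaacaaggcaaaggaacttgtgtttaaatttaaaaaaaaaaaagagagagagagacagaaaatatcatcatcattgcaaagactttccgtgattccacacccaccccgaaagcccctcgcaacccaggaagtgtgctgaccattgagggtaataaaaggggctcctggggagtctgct
No base is in capitals because neither motif searched, the NF-kB consensus and TATAAA, each on both strands, was found in the 250 bases before the RefSeq start of these 3 genes. The NF-kB consensus was in 3.90% of the 32851 RefSeq windows of that length and TATAAA in 12.4%. Among the windows of the other 2 genes, 1 held a match, TATAAA at 16 bases before a start of Ccl25. A missing match says only that these letters are not in the window.

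Cx3cl1, which encodes fractalkine, a chemokine for CX3CR1, lies between Ccl22 and Ccl17 at positions 94772009 to 94782427. It gave 81, 83 and 61 UMIs in the wild-type libraries and 26, 59 and 62 in the knockout libraries, or 26.7, 31.7 and 37.9 CPM in 746, 748 and 749. Its CPM in the knockout libraries thus varied little beside that of its neighbours, and it was not called (log2 fold change 0.39, edgeR adjusted p = 0.216). Within 100 kb of either gene, 1 further gene was called: Pllp, a membrane protein of myelin and epithelia, with 17, 23 and 21 UMIs against 2, 1 and 0 (log2 fold change -3.21, edgeR adjusted p = 0.00295).

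Of the 3 genes with the pattern most like that of Ccl17, 2 are known from myeloid cells. The remaining gene, left unnamed here, was nearer than 1 of them, at 0.171. It gave 276, 461 and 296 UMIs against 25, 87 and 338. Il1b, the cytokine interleukin-1 beta, differed by 0.120, with 85, 86 and 71 UMIs against 7, 23 and 83. F13a1, the A chain of clotting factor XIII, found in macrophages and platelets, differed by 0.193, with 24, 46 and 33 UMIs against 2, 7 and 32. The nearest to Ccl22 were Pcmtd2 (0.107), Zxdc, a zinc finger protein (0.171), and Aif1, a calcium-binding protein of macrophages (0.193). Aif1 gave 434, 396 and 410 UMIs against 40, 137 and 267. As with Ccl17, all of these were lowest in 746 among the knockout libraries and highest in 749, and none was called between the genotypes. Among the 5 genes themselves, the closest pairs were Ccl19 with Ccl25 (0.135) and Ccl17 with Ccl22 (0.244), while the other 8 pairs differed by 1.06 to 2.35.

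Markers of dendritic cells and macrophages moved in part with Ccl17 and Ccl22. Of 21 listed, 19 were in the table and tested, 4 were called higher and 2 lower in the knockout libraries (5 and 2 by DESeq2), with a median log2 fold change of 0.28. Their summed level was 3217 to 3794 CPM in the wild-type libraries, 3329 in 746, 3260 in 748 and 5957 in 749. It was highest where Ccl17 was highest. The sum in 746 lay within the wild-type range and was dominated by Lyz2, the lysozyme of macrophages, at 1315 CPM. Single markers were below every wild-type library in 746, among them Adgre1, the macrophage marker F4/80 (4.11 CPM against 18.2 to 27.2), Tyrobp, a myeloid adaptor (166 against 247 to 319), and Ptprc, the leukocyte antigen CD45 (10.3 against 16.5 to 31.8). Others were above every wild-type library there: Fcer1g (145 against 72.5 to 79.4), Batf3 (132 against 73.5 to 83.6), Cd68, Cd209a, Zbtb46 and Lyz2. Of the 19, 9 (47.4%) were at least 2-fold higher in 749 than in 746, against 9.56% of all tested genes. The contrast of 749 with 746 was chosen after the spread of Ccl17 and Ccl22 had been seen. The 9 were Adgre1, C1qa, C1qb, Csf1r, Mertk, Itgam, Tyrobp, Ptprc and Cd209a, with Mertk and Itgam at only 2 UMIs each in 746. The macrophage genes Cd68 (116 and 197 CPM in 746 and 749) and Lyz2 (1315 and 2121 CPM) differed less. So did the dendritic cell genes Itgax and Flt3. Itgax, the integrin CD11c, was at 22.6 CPM in 746, 16.1 in 748 and 34.8 in 749, and Flt3, a growth factor receptor, at 20.5, 25.3 and 28.7 CPM. Xcr1 and Clec9a, 2 defining markers of cross-presenting dendritic cells, were not analysed here. Of 4 tested B cell markers, 2 were at least 2-fold higher in 749 than in 746. Their summed level was 196 CPM in 749, of which Cd79b gave 149.8 CPM, against 96.5 to 137 CPM in the other 5 libraries. Pax5, their only call (higher, 1.58), went the other way, at 13.3 CPM in 746, 12.9 in 748 and 9.17 in 749. What part these cells had in the counts of Ccl17 and Ccl22 was not tested, and in bulk cells a change in the number of producing cells cannot be told apart from a change in the RNA of each cell.

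Ccl25 rose in the knockout libraries. It lies on chromosome 8 at positions 4325210 to 4360020 (mm10, plus strand, protein-coding), and the start of this model overlaps Elavl1 on the opposite strand. It gave 906, 697 and 877 UMIs in the wild-type libraries, or 297, 230.3 and 294 CPM. The knockout libraries 746, 748 and 749 gave 444, 767 and 617 UMIs, or 456, 413 and 377 CPM. The lowest knockout library was above the highest wild-type library, and the mean was 1.52-fold higher. The log2 fold change was 0.60 with standard error 0.14 (edgeR adjusted p = 0.0088), and the authors' deposited table gives -0.61 for Aire+/+ over Aire-/- (adjusted p = 0.00222). The call was lost without library 750 (0.49, edgeR adjusted p = 0.0572) and under scaling by library totals (0.40, edgeR adjusted p = 0.068). The latter scaling moved the median of all tested genes to -0.22.

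Ccl25 is also a gene of the cortical epithelium. Of 9 markers of cortical epithelial cells, 8 were tested, 6 of them higher and 0 lower (the same numbers by DESeq2), with a median log2 fold change of 1.02. Their summed level was 1131 to 1379 CPM in the wild-type libraries and 2348 to 2467 CPM in the knockout libraries. Most of that sum was Tbata, at 674 ± 65.7 CPM in the wild-type and 1406 ± 35.2 CPM in the knockout libraries. The called genes with the smallest p were Tbata (1.06), Ly75, an endocytic receptor (0.99), Prss16, the thymus-specific serine protease (1.20), and Cxcl12 (1.08). Psmb11, the proteasome subunit that defines cortical epithelium, gave 21, 7 and 7 UMIs against 13, 24 and 15 (1.58, edgeR adjusted p = 0.0196). Under library totals 5 of the 8 were called higher. The part of such cells in the rise of Ccl25 was not tested. Within 100 kb of Ccl25, 6 genes were tested and edgeR called 0 of them; Ccr9, the receptor gene, was not analysed here. The genes most like Ccl25 over the libraries were Qpctl (0.028), an enzyme that modifies the N-terminus of chemokines, Cybrd1, an iron reductase (0.036), and Abhd16a, a lipase (0.059). Of these, Abhd16a was called higher (0.54, edgeR adjusted p = 0.0177).

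Ccl19 came close to the threshold without passing it. The gene, protein-coding and on the minus strand, spans positions 42754525 to 42756577 of chromosome 4 in mm10. It gave 125, 106 and 123 UMIs in the wild-type libraries, or 41.0, 35.0 and 41.3 CPM. The knockout libraries 746, 748 and 749 gave 74, 99 and 78 UMIs, or 76.0, 53.3 and 47.7 CPM. Each knockout library was above each wild-type library, and 746 stood highest. The log2 fold change was 0.56 with standard error 0.19 (edgeR adjusted p = 0.0518), and the authors' deposited table gives -0.58 for Aire+/+ over Aire-/- (adjusted p = 0.0876). Only 4 of the 15 alternatives passed the threshold. These were size factors of DESeq2 (edgeR adjusted p = 0.0494), the looser filters (0.0399 and 0.039) and leaving out 749 (0.0159). The value fell to 0.37 without 746 (edgeR adjusted p = 0.152) and to 0.37 under library totals (edgeR adjusted p = 0.217).

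The counts of Ccl19 carry a doubt of assignment. Over the last 300 nt of its transcripts Ccl19 matches Gm2564 at 99.0% identity, and 95 nt match Ccl19-ps1, Ccl19-ps3 and Gm12407 at 98.9% to 100%. None of these copies has a row in the table, and how reads with several matches were treated is not given in the sources used here. Genes with the pattern most like Ccl19 were Mmp2, a matrix metalloproteinase (0.060), Prelid2 (0.063) and Atp8b2, a phospholipid flippase (0.070), none of them called. The summed level of 10 fibroblast and endothelial markers was also highest in 746, at 653 CPM against 199 in 748, 188 in 749 and 93.8 to 138 in the wild-type libraries. That sum was carried by the fibroblast matrix genes Dcn (302 CPM in 746), Col3a1 (195 CPM) and Col1a2 (95.5 CPM). Pdgfrb, a receptor of mural cells and fibroblasts, was at 23.6 CPM in 746, the lowest of the knockout libraries. Endothelial genes went both ways at low counts. Tek (3.08 CPM) and Pecam1 (13.3 CPM) were not highest in 746, with Emcn at 0. Cdh5 was highest there of all libraries (6.16 CPM, 6 UMIs), and Kdr highest of the knockout libraries (9.24 CPM, 9 UMIs). Of 7 tested, Dcn (2.07, edgeR adjusted p = 0.00187) and Col3a1 (3.01, edgeR adjusted p = 0.0157) were higher and 0 were lower. Their part in the level of Ccl19 was not tested.

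The make-up of the 5 transcripts differed between the knockout libraries. Together they made up 0.147% to 0.168% of all UMIs in the wild-type libraries, 0.0785% in 746, 0.0985% in 748 and 0.17% in 749. Ccl22 supplied 55.7% to 64.3% of their UMIs in the wild-type libraries, and Ccl25 14.6% to 22.6%. In 746 Ccl25 supplied 55.8% and Ccl22 26.6%, while in 749 Ccl22 supplied 53.3% and Ccl25 19.9%. The shares of Ccl25 and Ccl19 in 749 lay within the wild-type range. Xcl1 supplied 0.776% to 2.09% of the UMIs in wild-type libraries and 0 in 749. Of the 10 within-library ratios, the 4 with Xcl1 reached the smallest possible p of 0.1 in the exact permutation test (adjusted p = 0.25), by 4.02 to 5.49 on the log2 scale with 0.5 added to each count. With Xcl1 at 0 in 2 libraries their size is set by that value, and with 1 added it was 3.28 to 4.75. Ccl19 over Ccl25 moved the least, by -0.04 (exact permutation p = 0.9).

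**Figure D3:**
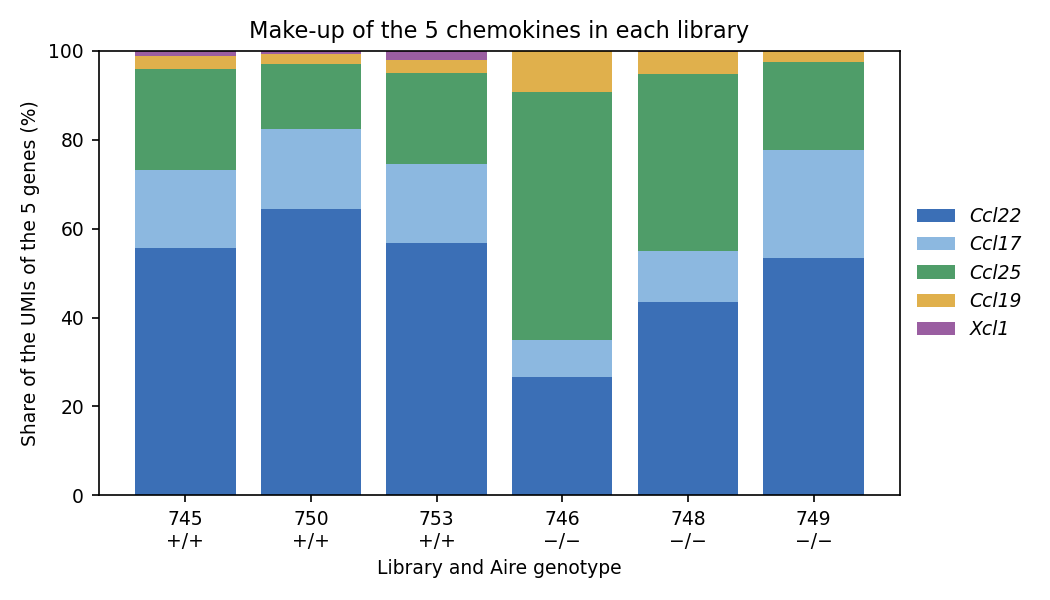
Bars give the share of each gene in the UMIs of the 5 chemokines (percent), 1 bar per library. Ccl25 takes 55.8% in 746 and 39.7% in 748, but 19.9% in 749, which lies within the wild-type range of 14.6% to 22.6%.

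Of 7 signalling and scavenging receptors of these chemokines, 5 were in the table and all 5 were tested. Ccr7 was at 182 ± 23.7 CPM in the wild-type libraries and 215 ± 72.0 CPM in the knockout libraries, and in 746, 748 and 749 it stood at 152, 199.6 and 293 CPM. Ccr4 was at 10.1 ± 0.477 and 9.69 ± 2.95 CPM. Ackr4, a decoy receptor that clears CCL19 and CCL25, was at 7.60 ± 2.30 and 9.44 ± 3.12 CPM, and Ccrl2, an atypical receptor, at 18.3 ± 1.18 and 17.3 ± 9.74 CPM. None of these 4 was called. Ackr2, a decoy receptor that clears inflammatory CC chemokines, CCL17 and CCL22 among them, rose from 8.40 ± 2.50 to 18.4 ± 2.74 CPM, by 1.11 on the log2 scale with standard error 0.30 (edgeR adjusted p = 0.0181). Of 9 other chemokine receptors tested, edgeR and DESeq2 each called 0, and 3 had an unadjusted p under 0.05 in edgeR. Under library totals Ccr10 was called lower, and under DESeq2 size factors Ccr6 was called higher. The smallest of these p were those of Ccr6, Cxcr5, Ackr1 and Ccr10, with log2 fold changes of 0.58, 0.72, -1.02 and -0.32.

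Chemokines other than the 5 went both ways. Of 8 tested homeostatic chemokines, which act without inflammation, 4 fell and 2 rose, with a median log2 fold change of -0.53. Ccl20, the ligand of CCR6, fell from 91.8 ± 28.9 to 21.8 ± 7.44 CPM (-2.11, edgeR adjusted p = 0.000159). Cxcl17 (-3.05) and Cxcl14 (-2.13), made by epithelia of mucosa and skin, fell as well. So did Cxcl13, from 30.0 ± 11.6 to 14.0 ± 4.04 CPM (-1.04, edgeR adjusted p = 0.0329). Cxcl12, the ligand of CXCR4 and also on the list of cortical markers, rose from 47.1 ± 19.5 to 99.6 ± 12.8 CPM (1.08, edgeR adjusted p = 0.00799). The genes for CCL21, the other ligand of CCR7, were not analysed here. Of 20 tested inflammatory chemokines, 5 fell and 2 rose, with a median of -0.21, the same with Ccl1 at its bound. Ccl1, a ligand of CCR8, had 203, 197 and 215 UMIs against 0 in every knockout library, at least 101-fold lower with 3 UMIs over the group as the floor. Cxcl9 (-1.28) and Ccl5 (-0.94), which fell, and Cxcl10 (0.79), which rose, had the next smallest p. Under scaling by library totals Ccl27a and Cxcl2, each 1 of the 2 that rose in its list, were no longer called.

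**Figure D4:**
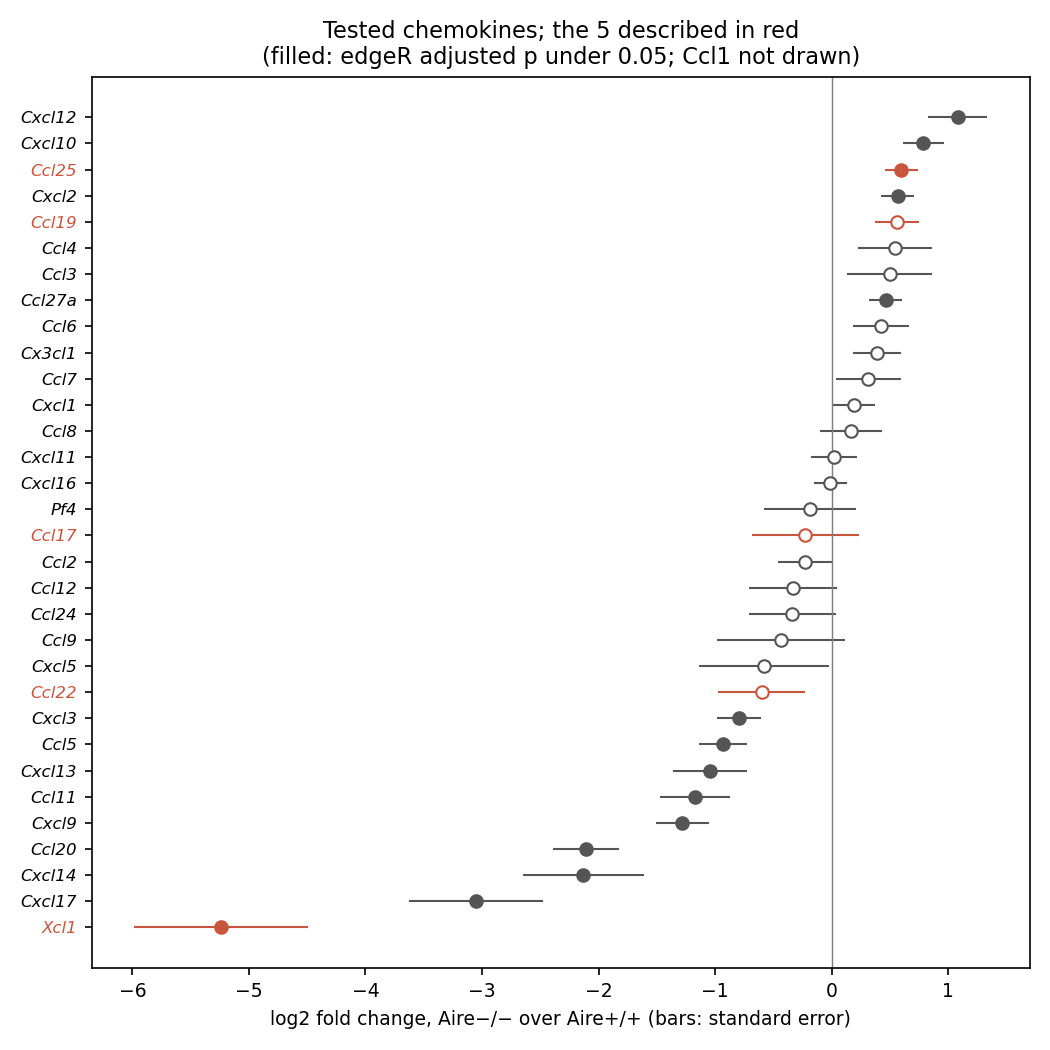
Log2 fold changes (Aire-/- over Aire+/+) of the tested chemokines, with standard errors; filled points passed an adjusted p of 0.05 and the 5 genes described here are in red. Ccl1, at 0 UMIs in all knockout libraries, has no finite fold and is not drawn. Xcl1, at -5.24, is the lowest of those drawn, and Ccl25 and Ccl19 stand near the top at 0.60 and 0.56.

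The NF-kB route, which runs from RANK, CD40 and the lymphotoxin beta receptor to RelB in these cells, is known to drive Ccl19 and Ccl22 in lymphoid tissue. Its part in the levels of these chemokines here was not tested. Of 18 tested genes of the route 4 rose and 0 fell (4 and 0 by DESeq2), with a median log2 fold change of 0.20. They were Nfkbia, an inhibitor of NF-kB and itself a target (0.85, edgeR adjusted p = 0.000525), Relb (0.84, 0.000738), Traf2, an adaptor (0.60, 0.0142), and Map3k14, the kinase NIK (0.59, 0.017). Under scaling by library totals only Nfkbia and Relb passed, and the median was -0.00, above the -0.22 of all genes. The RANK gene Tnfrsf11a was at 51.3 ± 4.76 and 37.4 ± 15.0 CPM and Cd40 at 588 ± 52.2 and 571 ± 87.4 CPM, neither called. Of 13 tested markers of later and mimetic medullary cells, which resemble peripheral tissues, 4 fell and 1 rose (median -0.10). Foxj1, a regulator of cilia (-1.53), Krt10, a keratin of skin (-1.92), Gp2, a marker of microfold cells (-2.19), and Ivl, involucrin (-1.36), were the 4 that fell. Trpm5 was the 1 that rose (1.04, edgeR adjusted p = 0.0348), and under library totals it was not called. Over all tested genes, 12.1% were called lower and 8.59% higher.

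**Figure D5:**
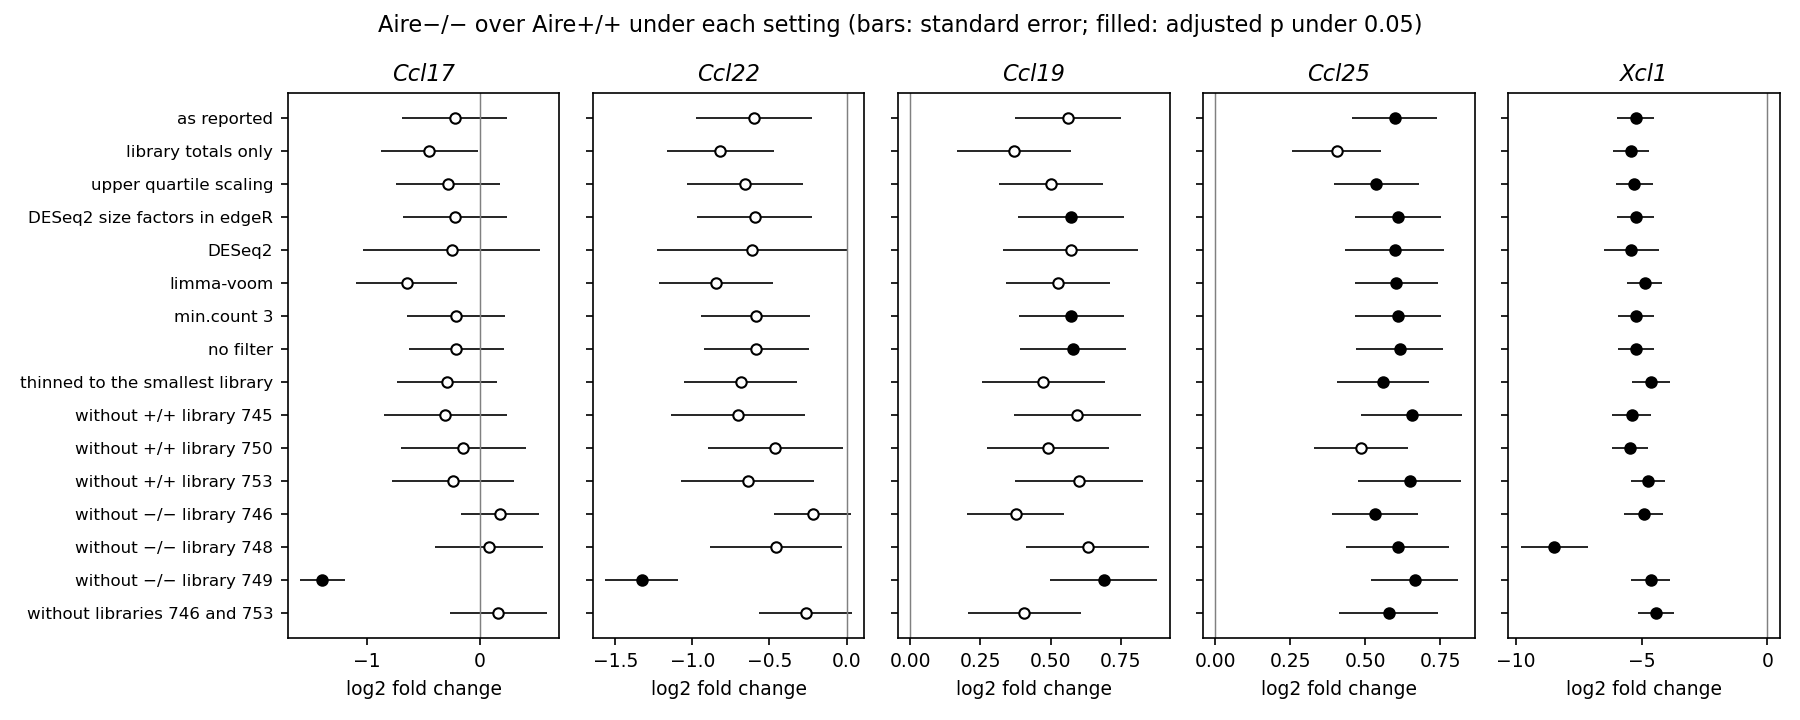
For each gene, points give the log2 fold change (Aire-/- over Aire+/+) as reported and under 15 alternatives, with standard errors; filled points passed an adjusted p of 0.05. Xcl1 is filled throughout, Ccl25 in all but 2 alternatives, and Ccl17 and Ccl22 only without library 749.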

How the data were processed

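The authors deposited 1 table for the 6 libraries, made from MARS-seq, a 3′ method with molecular identifiers. Its UMI counts are raw counts per gene symbol, per the file headers, and were the only values tested. The normalized counts, a signal deposited by the authors as counts divided by a size factor, and their regularized log2 values were not used. The authors' own log2 fold changes and their p-value columns, raw and adjusted, come from that table per the file headers and are named where printed. STAR 2.4.2a, HTSeq, DESeq2, cutadapt and bcl2fastq stand in the submitters' processing notes, with build mm10. How UMIs were collapsed, which annotation was used and whether strand was kept: not given in the sources used here.

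The comparison used quasi-likelihood tests of edgeR 4.0.16 under R 4.3.3 on all genes, with TMM scaling, filterByExpr (min.count 10), the genotype as the only term and Benjamini-Hochberg adjustment over 11956 genes. Levels are mean ± SD of 3 libraries. Standard errors are the log2 fold change divided by the root of F. Alternatives were other scalings and filters, DESeq2 1.42.0, limma-voom (limma 3.58.1), counts thinned to the smallest library, and leaving out libraries. Log2 CPM used a prior count of 2, and pair ratios 0.5 added to each count. Library totals set the precision: 3 UMIs are 0.984 to 1.01 CPM with Aire+/+ and 1.61 to 3.08 CPM with Aire-/-. Positions come from GENCODE M21 (mm10). Copies are blastn 2.17.0 matches of at least 80 nt and 90% identity. The edgeR step was tested on simulated data.

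The members and gene lists were chosen with earlier results of these data known. Named genes were the 5 members, up to 4 tested genes per list with the smallest p, all receptors of the members, the 3 nearest patterns per member, called or chemokine neighbours within 100 kb, and Aire. One gene near Ccl17 in pattern with an accession-like symbol is left unnamed. Gapdh, Epcam, Psmb11, Tnfrsf11a, Cd40, Trpm5, Cxcl13 and the single markers of myeloid, B and stromal cells outside that rule were named after their values were seen.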

Additional observations from a re-analysis of the deposited data

How the results depend on the processing

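Xcl1 stayed lower and called under all 15 alternatives (-8.46 to -4.64 when 1 library was left out). Ccl17 kept its sign and stayed uncalled except when a library was left out, where it ran from -1.39, called without 749, to 0.18, and without 746 and 753 together it turned to 0.16 (0.18 without 746 and 0.08 without 748 also turned). Ccl22 kept its sign throughout and ran from -1.33, called without 749, to -0.22. Ccl19 stayed higher, ran from 0.37 to 0.69 with 1 library left out, and passed the threshold at 0.57 under DESeq2 size factors and with min.count 3, at 0.58 with no filter, and without 749. Ccl25 stayed higher at 0.49 to 0.66 with 1 library left out, and lost its call without 750 and at 0.40 under library totals. The cause of these changes was not tested.

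Genes called lower numbered 1450, and 863 after thinning. Genes called higher numbered 1027, against 567 under library totals, 620 after thinning, 652 without 746 and 753, and 618 to 1156 with 1 library left out. Scaling by library totals moved the split to 2048 lower and 567 higher. Other chemokines called higher numbered 4, against 2 under library totals, after thinning and without 746 and 753, and 2 to 4 with 1 library left out. At 3 UMIs, a level under 3.08 CPM in 746 could not be told from 0.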
